A study of Mus musculus with 14 samples.

Results

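The genes described here load peptides onto major histocompatibility complex (MHC) class I, the surface molecules that show fragments of a cell's own proteins to CD8+ T cells. They are the light chain B2m, the heavy chains H2-K1 and H2-D1, the peptide transporter Tap1 and Tap2, its partner tapasin (Tapbp), the immunoproteasome subunits Psmb8, Psmb9 and Psmb10, and Nlrc5, a regulator of class I transcription. For each gene the array row that names it, alone or among several symbols, was taken, and the row of highest mean over the 14 arrays where there were several. This gave 9 distinct rows for the 10 genes, of 20738 features tested, because H2-K1 and H2-D1 share a row. The row taken for Tapbp is a joined row that also names Rps3a1, and its listed RefSeq transcripts are those of Rps3a1.

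Expression was measured on Affymetrix Mouse Gene 1.0 ST arrays in isolated pancreatic islets of untreated mice of 11 weeks, on a mixed background of C57BL/6 and NMRI (1:1). There were 5 arrays of control mice, for which the labels give no genotype. Another 4 arrays came from Pdx-1+/- mice, which carry the driver allele Pdx-1-tTA and are haploinsufficient for Pdx-1. The remaining 5 came from IKK2-CApdx-1 mice (IKK2-CA below), which were diabetic and in which that same allele drives constitutively active IKK2 in β-cells, so both of these groups carry the driver. The diabetes and the transgene cannot be told apart by this design. Whether arrays stand for separate mice is not stated, so p-values here reflect only how these samples spread, which may be technical.

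Class I molecules form in the endoplasmic reticulum from a heavy chain, B2m and a peptide that the proteasome cut and TAP carried in. Under interferon γ newly assembled proteasomes take up Psmb8, Psmb9 and Psmb10 in place of Psmb5, Psmb6 and Psmb7, and NF-κB, the pathway that IKK2 switches on, also acts on class I promoters. In islets, class I on β-cells is what CD8+ T cells recognise in autoimmune diabetes.

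The promoters of the class I chains are shown because they hold letters of the κB motif, to which NF-κB binds, and the Tap1 window because it is shared with Psmb9. Windows of 300 bases around each gene's start were taken from RefSeq, build GRCm38.p6, and 8 of the 10 genes had one in the table used. H2-K1 lies at chr17:34000298-34000597 on the minus strand, and H2-D1 at chr17:35262844-35263143, B2m at chr2:122147437-122147736 and Tap1 at chr17:34187306-34187605 on the plus strand. Each is written 5′ to 3′ on the gene's strand, with κB matches in capitals and, in B2m, also the interferon response element that stands before its κB match.
H2-K1: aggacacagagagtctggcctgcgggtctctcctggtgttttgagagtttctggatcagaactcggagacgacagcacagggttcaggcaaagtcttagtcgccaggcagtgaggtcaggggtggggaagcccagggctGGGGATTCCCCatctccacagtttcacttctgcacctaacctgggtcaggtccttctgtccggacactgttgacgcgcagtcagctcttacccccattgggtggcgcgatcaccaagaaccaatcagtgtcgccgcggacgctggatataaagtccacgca
H2-D1: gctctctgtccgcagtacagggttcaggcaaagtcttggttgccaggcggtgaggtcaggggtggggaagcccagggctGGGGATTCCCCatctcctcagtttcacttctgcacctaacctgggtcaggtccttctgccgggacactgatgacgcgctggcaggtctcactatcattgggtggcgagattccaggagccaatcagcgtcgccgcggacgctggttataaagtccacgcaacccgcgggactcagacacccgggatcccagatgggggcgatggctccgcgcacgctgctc
B2m: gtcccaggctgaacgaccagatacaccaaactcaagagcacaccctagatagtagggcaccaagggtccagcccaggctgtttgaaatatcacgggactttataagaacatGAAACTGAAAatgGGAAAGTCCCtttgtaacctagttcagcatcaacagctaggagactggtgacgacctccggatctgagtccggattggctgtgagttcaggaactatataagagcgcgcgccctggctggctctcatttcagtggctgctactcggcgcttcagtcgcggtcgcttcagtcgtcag
Tap1: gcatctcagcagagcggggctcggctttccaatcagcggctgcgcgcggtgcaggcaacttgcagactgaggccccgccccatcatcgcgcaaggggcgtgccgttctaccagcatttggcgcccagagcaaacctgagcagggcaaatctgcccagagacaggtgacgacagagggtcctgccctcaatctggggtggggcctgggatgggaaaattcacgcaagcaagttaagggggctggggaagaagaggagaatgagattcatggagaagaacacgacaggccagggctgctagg
The κB motif was searched on both strands. It was found in 3 of the 8 windows, against 4.16% of 32851 RefSeq windows of the same length. In H2-K1 and H2-D1 the capitals cover a pair of overlapping matches, GGGATTCCCC and GGGGATTCCC as read on the gene's strand, the latter matching on the opposite strand, inside a stretch of 47 bases that is identical in both promoters. The B2m match, GGAAAGTCCC as read on the gene's strand, lies on the opposite strand at positions −126 to −117 from the start. The interferon response element matched among the 8 only in B2m, as GAAACTGAAA, against 3.44% of all windows. The γ-activated site, searched as TTCNNNGAA, matched among the 8 only in Psmb8, against 8.3%. The Tap1 and Psmb9 starts lie 225 bases apart on opposite strands, so their windows overlap by 275 bases, and none of the 3 motifs was found there. These matches are letters in a window and were not tested for binding.

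All values below are log2 signals on the authors' RMA scale, which compare 1 row between arrays and not rows with each other. Differences come from 1 limma fit of the 3 groups, with p-values adjusted by the Benjamini-Hochberg method over all 20738 features and a threshold of 0.05. In IKK2-CA against Pdx-1+/- islets, the comparison that holds the driver allele equal, all 9 rows read higher in IKK2-CA, against 45.1% of all features. None of the 9 passed the threshold, which 0.0964% of all features did, all of them upward. At an unadjusted p below 0.05, 6 of the 9 were higher, against 4.35% of all features. In 5 of the 9 every IKK2-CA array lay above every Pdx-1+/- array, against 1.74% of all features. Those 5 were B2m, the H2-K1 and H2-D1 row, Tap1, Psmb8 and Psmb9. The median difference was 0.59 log2 over the 9 rows and −0.0144 over all features.

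In IKK2-CA against control islets all 9 rows again read higher, against 46.6% of all features, by 0.20 to 0.89 log2 with a median of 0.42 against −0.011 over all features. None passed the threshold, which 0.69% of all features passed upward and 2.18% in either direction. The adjusted p-values lay between 0.0773 and 0.275, and all 9 had an unadjusted p below 0.05, against 6.31% of all features upward. With the row of Tapbp alone in place of the joined row, 8 of the 9 had such a p. The arrays did not overlap in 2 rows, Tap1 and Psmb10, against 1.87% of features. Without control array 3 the lowest adjusted p of the 9 rows was 0.195, and without IKK2-CA array 3 it was 0.190. Leaving out IKK2-CA array 4, 1.63% of all features passed upward (4.77% in either direction), and 4 of the 9 rows did: Tap1 (1.05 log2, adjusted p = 0.0261), Nlrc5 (0.41, 0.0279), Psmb8 (0.97, 0.033) and Psmb9 (0.78, 0.0442). The same 4 passed when arrays were weighted by their fit, where 1.9% of all features passed upward (6.78% in either direction), with adjusted p from 0.037 for Psmb8 to 0.0496 for Nlrc5.

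In Pdx-1+/- against control islets none of the 9 rows passed the threshold, which 0.0868% of features did, all downward. In Pdx-1+/- 3 of the 9 read higher, against 48.5% of all features, and 1 of them, Nlrc5, had an unadjusted p below 0.05, against 1.27% of all features upward. The median difference was −0.11 log2 and the range −0.18 to 0.25. With Tapbp alone (−0.26) in place of the joined row, 2 of the 9 read higher, and the range was −0.26 to 0.25. In none of the 9 did the arrays stand apart, against 0.492% of features with Pdx-1+/- higher and 1.36% with it lower. The 2 comparisons with IKK2-CA share its arrays, and those with control share the control arrays, so their values are set side by side and are not separate evidence.

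**Figure D1:**
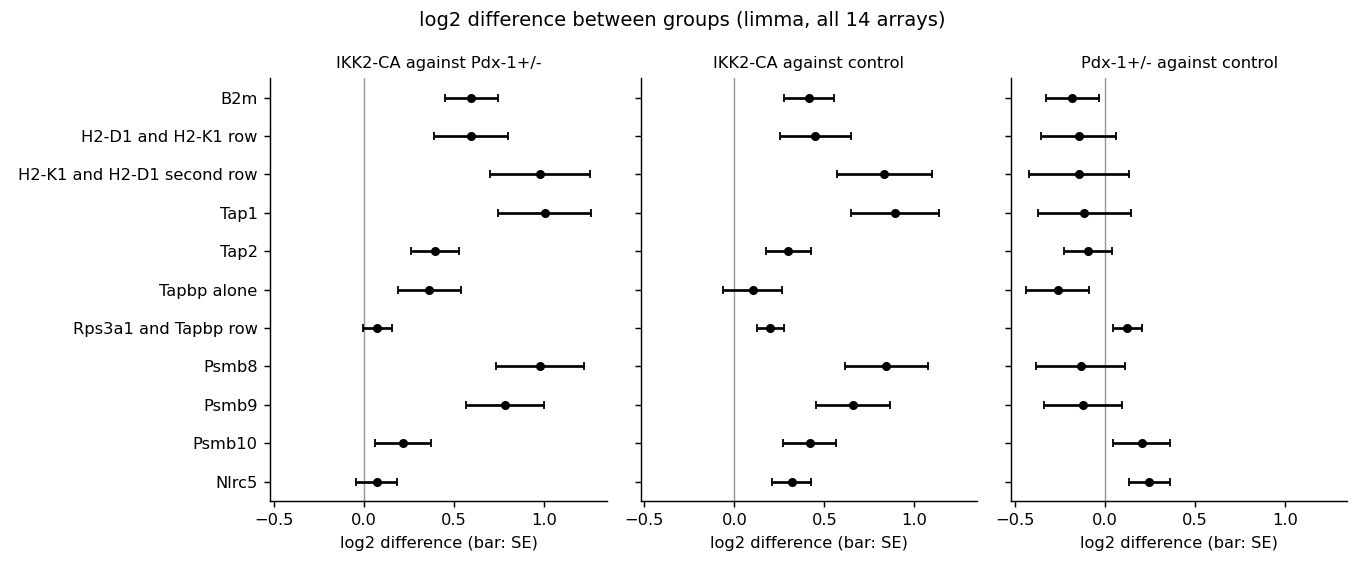
Log2 difference of each member row and companion row in the 3 comparisons, with the moderated standard error as bar. The 9 member rows lie above 0 in both comparisons with IKK2-CA, from 0.07 to 1.00 against Pdx-1+/- and from 0.20 to 0.89 against control, and on both sides of 0 in Pdx-1+/- against control.

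B2m, the light chain that every classical class I molecule needs, read 11.78, 12.06, 11.52, 11.86 and 11.67 on control arrays 1 to 5. On Pdx-1+/- arrays 1 to 4 it read 11.62, 11.92, 11.45 and 11.39, and on IKK2-CA arrays 1 to 5 it read 11.93, 12.12, 12.37, 11.98 and 12.55. The lowest IKK2-CA array lay just above the highest Pdx-1+/- array, while control array 2 lay inside the IKK2-CA range. B2m differed by 0.60 log2 from Pdx-1+/- (SE 0.148, 1.51-fold, adjusted p = 0.229). Against control it differed by 0.41 log2 (SE 0.139, 1.33-fold, adjusted p = 0.149).

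The heavy chains H2-K1 and H2-D1, which hold the peptide and face the T-cell receptor, cannot be separated on this array. Their row of highest mean (transcript cluster 10444780) names both genes and a locus symbol, and the RefSeq transcript listed for it is that of H2-D1. It read 10.43 ± 0.25 (SD, n = 5) in control, 10.29 ± 0.16 (SD, n = 4) in Pdx-1+/- and 10.88 ± 0.49 (SD, n = 5) in IKK2-CA islets. On IKK2-CA arrays 1 to 5 it read 10.50, 10.65, 11.23, 10.47 and 11.56. Arrays 3 and 5 stood above all others, and the other 3 fell among the control arrays, which reached 10.80. The difference was 0.59 log2 against Pdx-1+/- (SE 0.207, adjusted p = 0.508) and 0.45 against control (SE 0.195, adjusted p = 0.275), which became 0.28 without IKK2-CA array 5.

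A second row (10450075) names the same genes, with the RefSeq transcript of H2-K1. It read 9.90, 9.93, 11.07, 9.88 and 11.34 on IKK2-CA arrays 1 to 5, against 9.23 to 9.94 in control and 9.27 to 9.65 in Pdx-1+/- islets. The gap between arrays 3 and 5 and the rest was wider here than in the first row. The difference was 0.98 log2 against Pdx-1+/- (SE 0.279, 1.97-fold, adjusted p = 0.331) and 0.83 against control (SE 0.263, 1.78-fold, adjusted p = 0.121). Heavy chains vary in sequence between mouse strains, and the labels do not give the class I alleles of these mice of mixed background, so whether they bear on these rows was not tested.

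**Figure D2:**
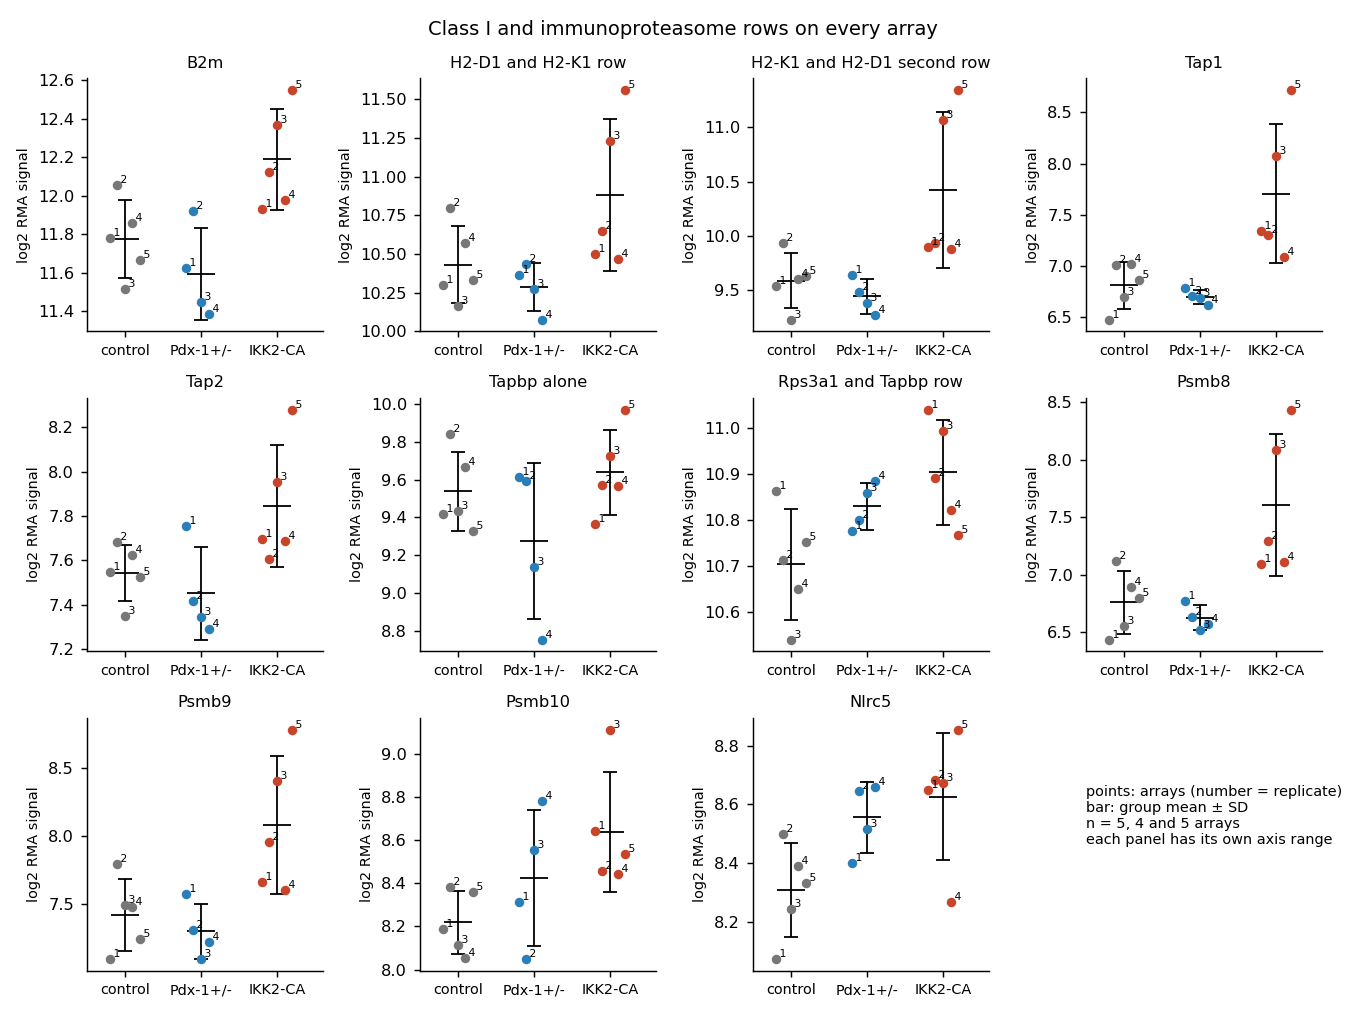
Log2 signal of each member row and companion row on every array, with the group mean and SD. IKK2-CA arrays 3 and 5 are the 2 highest for B2m, both heavy-chain rows, Tap1, Tap2, Psmb8 and Psmb9, and IKK2-CA array 4 lies near the control arrays.

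Tap1, a subunit of the pump that carries peptides into the endoplasmic reticulum, had the largest difference of the 9 rows in both comparisons with IKK2-CA. It read 6.48, 7.01, 6.70, 7.02 and 6.86 on control arrays 1 to 5, and 6.78, 6.71, 6.69 and 6.62 on Pdx-1+/- arrays 1 to 4. On IKK2-CA arrays 1 to 5 it read 7.35, 7.30, 8.07, 7.08 and 8.72. Each IKK2-CA array lay above all 9 others, array 4 by little and arrays 3 and 5 by the most. Tap1 differed by 1.00 log2 from Pdx-1+/- (SE 0.259, adjusted p = 0.257) and by 0.89 log2 from control (SE 0.244, 1.85-fold, adjusted p = 0.0773). Without IKK2-CA array 5 these became 0.75 (adjusted p = 0.156) and 0.64 log2 (adjusted p = 0.0883).

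Tap2, the other subunit of that pump, read 7.55, 7.68, 7.35, 7.62 and 7.52 on the control arrays and 7.75, 7.42, 7.34 and 7.29 on the Pdx-1+/- arrays. On IKK2-CA arrays 1 to 5 it read 7.70, 7.61, 7.95, 7.69 and 8.28. The groups overlapped, with IKK2-CA arrays 3 and 5 the only ones above every other array. Its difference was 0.39 log2 against Pdx-1+/- (SE 0.135, adjusted p = 0.491) and 0.30 against control (SE 0.127, adjusted p = 0.263), which became 0.19 without IKK2-CA array 5.

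Tapasin, encoded by Tapbp, holds the empty class I molecule beside the transporter until a peptide fits. The row of highest mean that names it also names Rps3a1, a ribosomal protein gene, and the RefSeq transcripts listed for it are those of Rps3a1. Of its 8 listed transcripts, 1 is shared with the row of Tapbp alone. That joined row read 10.70 ± 0.12 (SD, n = 5) in control, 10.83 ± 0.05 (SD, n = 4) in Pdx-1+/- and 10.90 ± 0.11 (SD, n = 5) in IKK2-CA islets. It differed by 0.20 log2 from control (SE 0.0753, adjusted p = 0.196) and by 0.07 from Pdx-1+/- (SE 0.0798, adjusted p = 0.944), the latter 0.04 without IKK2-CA array 1. Tapbp alone (10444068) read 9.42, 9.84, 9.43, 9.67 and 9.33 in control, 9.61, 9.60, 9.14 and 8.76 in Pdx-1+/- and 9.36, 9.57, 9.72, 9.56 and 9.97 in IKK2-CA islets. The 3 groups overlapped, with Pdx-1+/- array 4 the lowest. The difference of Tapbp alone was 0.36 log2 against Pdx-1+/- (SE 0.174, adjusted p = 0.727) and 0.10 against control (SE 0.164, adjusted p = 0.857). Against Pdx-1+/- it became 0.19 without Pdx-1+/- array 4. Against control it became 0.02 without IKK2-CA array 5, 0.05 without control array 5, 0.18 without control array 2 and 0.17 without IKK2-CA array 1. With Tapbp alone in place of the joined row, 8 of 9 rows instead of all 9 had an unadjusted p below 0.05 against control.

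Psmb8, the immunoproteasome subunit with chymotrypsin-like activity, read 6.44, 7.12, 6.56, 6.90 and 6.80 on control arrays 1 to 5. It read 6.78, 6.64, 6.53 and 6.57 on the Pdx-1+/- arrays and 7.10, 7.29, 8.08, 7.11 and 8.43 on IKK2-CA arrays 1 to 5. All IKK2-CA arrays exceeded all Pdx-1+/- arrays, and control array 2 lay just above the 2 lowest of them. The difference was 0.98 log2 against Pdx-1+/- (SE 0.245, 1.97-fold, adjusted p = 0.239) and 0.84 against control (SE 0.231, 1.79-fold, adjusted p = 0.0773).

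Psmb9, which takes the place of Psmb6, read 7.10, 7.79, 7.49, 7.48 and 7.24 in control and 7.57, 7.31, 7.09 and 7.22 in Pdx-1+/- islets. On IKK2-CA arrays 1 to 5 it read 7.66, 7.95, 8.40, 7.60 and 8.78. As with Psmb8, the IKK2-CA arrays cleared the Pdx-1+/- arrays but not control array 2. Psmb9 differed by 0.78 log2 from Pdx-1+/- (SE 0.217, 1.72-fold, adjusted p = 0.322) and by 0.66 from control (SE 0.205, 1.58-fold, adjusted p = 0.116).

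Psmb10, which takes the place of Psmb7, followed another order, with the control group lowest. It read 8.19, 8.38, 8.12, 8.05 and 8.36 in control, 8.31, 8.05, 8.55 and 8.78 in Pdx-1+/- and 8.64, 8.46, 9.11, 8.44 and 8.54 in IKK2-CA islets. Every IKK2-CA array lay above every control array, and Pdx-1+/- array 4 exceeded all but IKK2-CA array 3. The difference was 0.42 log2 against control (SE 0.147, 1.34-fold, adjusted p = 0.167) and 0.21 against Pdx-1+/- (SE 0.156, adjusted p = 0.890). The latter became 0.09 without Pdx-1+/- array 2, 0.33 without Pdx-1+/- array 4 and 0.10 without IKK2-CA array 3.

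The subunits that these replace are described beside them, and none passed in any comparison. Psmb5 differed by 0.02 log2 from Pdx-1+/- (adjusted p = 0.994) and by −0.02 from control (adjusted p = 0.974). Psmb6 differed by 0.15 (adjusted p = 0.89) and 0.20 (adjusted p = 0.384), and Psmb7 by 0.14 in both comparisons (adjusted p = 0.842 and 0.485). In Psmb6 every IKK2-CA array, from 8.77 up, lay above every control array, which reached 8.74. Taken per array as the log2 of Psmb8 minus that of Psmb5, centred on the 14 arrays, control islets averaged −0.28 ± 0.40 (SD, n = 5) and Pdx-1+/- islets −0.37 ± 0.18 (SD, n = 4). IKK2-CA islets averaged 0.58 ± 0.62 (SD, n = 5), from 0.01 to 1.54. For Psmb9 minus Psmb6 the means were −0.11, −0.29 and 0.34, with IKK2-CA arrays from −0.17 to 1.17. For Psmb10 minus Psmb7 they were −0.16, 0.05 and 0.12. These centred values were not tested.

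Nlrc5 encodes a protein that acts in the nucleus to drive transcription of class I genes, B2m, Tap1 and Psmb9 among them. The array has 19 rows for it, and the one of highest mean (10574100) read 8.07, 8.50, 8.24, 8.39 and 8.33 in control, 8.40, 8.64, 8.52 and 8.66 in Pdx-1+/- and 8.65, 8.68, 8.67, 8.27 and 8.86 in IKK2-CA islets. IKK2-CA array 4 lay among the controls, and the Pdx-1+/- arrays overlapped both other groups. The difference was 0.32 log2 against control (SE 0.108, 1.25-fold, adjusted p = 0.154) and 0.07 against Pdx-1+/- (SE 0.115, adjusted p = 0.977). The latter became 0.02 without Pdx-1+/- array 1, 0.16 without IKK2-CA array 4 and 0.01 without IKK2-CA array 5. In Pdx-1+/- against control it was 0.25 log2 (95% interval 0.0024 to 0.49, adjusted p = 0.999).

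The other Nlrc5 rows are described beside that choice. Against Pdx-1+/- all 19 read higher in IKK2-CA, from 0.07 to 1.39 log2 with a median of 0.55, and the row of highest mean was the lowest of the 19. Against control all 19 were higher as well, from 0.12 to 1.30 with a median of 0.50, and the row of highest mean was 4th from the lowest. In Pdx-1+/- against control 4 of 19 were positive, the median was −0.03, and the row of highest mean had the highest difference. Tested over all 35556 rows of the table, of which 0.312% passed upward (0.886% in either direction), 1 of the 19 passed in IKK2-CA against control. Row 10574145 rose from 4.20 ± 0.26 (SD, n = 5) to 5.50 ± 0.78 (SD, n = 5), by 1.30 log2 (SE 0.283, adjusted p = 0.0482). It has the lowest mean of the 19, at 4.66 over the 14 arrays. The rows share a gene and its RNA, so they are not replicates.

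**Figure D3:**
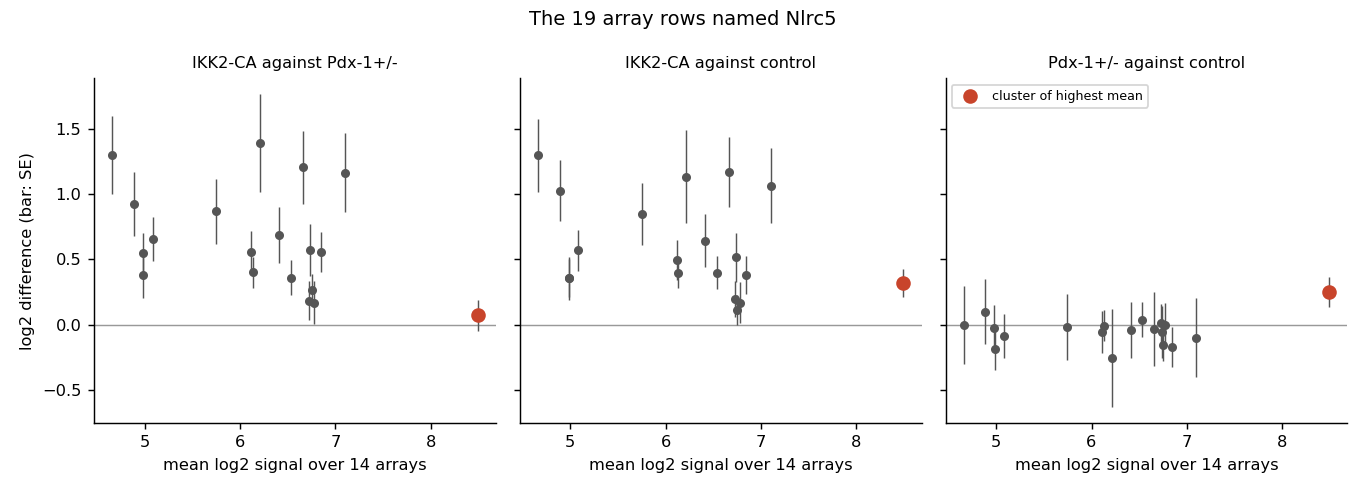
Log2 difference of each of the 19 Nlrc5 rows in the 3 comparisons against the row's mean log2 signal over 14 arrays, with the moderated standard error as bar and the row of highest mean marked. All 19 lie above 0 in both comparisons with IKK2-CA, and the marked row is the lowest of them against Pdx-1+/- at 0.07.

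In Pdx-1+/- against control the intervals of the other rows spanned 0. The 95% interval was −0.50 to 0.13 log2 for B2m, −0.59 to 0.30 for the H2-K1 and H2-D1 row and −0.67 to 0.44 for Tap1. It was −0.66 to 0.39 for Psmb8, −0.59 to 0.34 for Psmb9 and −0.13 to 0.54 for Psmb10. All had an adjusted p of 0.999. The group means ran from IKK2-CA through control to Pdx-1+/- for B2m, the heavy chains, Tap1, Tap2, Tapbp alone, Psmb8 and Psmb9, and in each the control and Pdx-1+/- arrays overlapped.

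The arrays of one group were not alike in these genes. With each row centred on its 14-array mean, the 9 rows averaged 0.77 on IKK2-CA array 5 and 0.60 on array 3, but 0.16 on array 2, 0.12 on array 1 and −0.01 on array 4. Control arrays ranged from −0.32 to 0.06 and Pdx-1+/- arrays from −0.25 to −0.13. IKK2-CA array 5 was the highest of the 14 arrays for 7 of the 9 rows, array 3 for Psmb10 and array 1 for the joined Rps3a1 and Tapbp row. IKK2-CA array 4 thus lay below control array 2, the highest of the controls. With Pdx-1+/- array 4 and also IKK2-CA array 5 left out, all 9 rows still read higher in IKK2-CA, with a median of 0.36 log2 against Pdx-1+/- (lowest adjusted p = 0.272) and 0.32 against control (lowest adjusted p = 0.0711).

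**Figure D4:**
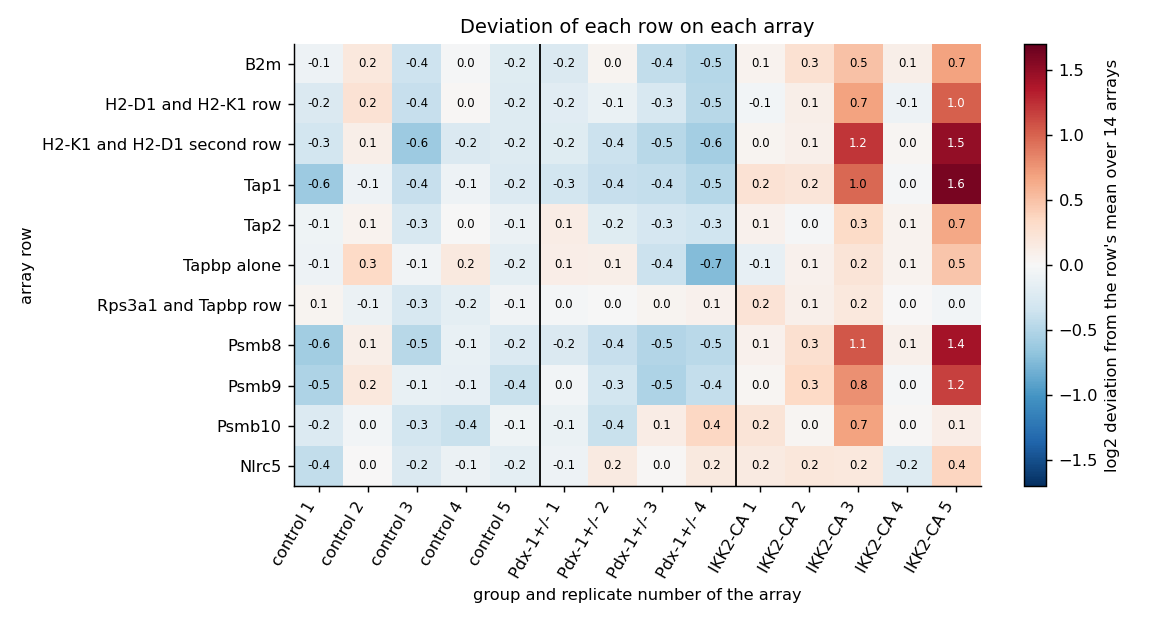
Log2 deviation of each member row from its own mean over the 14 arrays, with arrays in columns by group. IKK2-CA arrays 3 and 5 are the highest columns, with means of 0.60 and 0.77 over the 9 rows, and IKK2-CA array 4 averages −0.01.

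Tap1 and Psmb8 had the nearest patterns of any pair, with centred values 0.0841 log2 apart on average over the 14 arrays. B2m and the H2-K1 and H2-D1 row were each other's nearest at 0.12, and Psmb9 was nearest to Psmb8 at 0.12. Psmb9, Tap1, Psmb8 and Tap2 are consecutive protein-coding genes on chromosome 17 in RefSeq. Outside the members, the features nearest to the mean of the 9 rows were Aurkb, a mitotic kinase, at 0.0643, Rgs19, a regulator of G-protein signalling, at 0.0744 and Rubcnl at 0.0757. Next came Pik3r6, a regulatory subunit of phosphoinositide 3-kinase γ, at 0.076 and Dlgap5, a spindle protein, at 0.077. Rgs19 rose by 0.58 log2 (adjusted p = 0.0398) and Pik3r6 by 0.46 (adjusted p = 0.048) in IKK2-CA against control. They were picked for their likeness, so these are descriptions.

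Among other class I heavy chains, 11 of 20 listed genes had a row of their own, and 9 read higher in IKK2-CA than in control islets, with a median of 0.37 log2. H2-M2, a non-classical class I gene, rose 4.31-fold (log2 2.11, SE 0.453, adjusted p = 0.0278), from 4.81 ± 0.27 (SD, n = 5) to 6.92 ± 1.32 (SD, n = 5). Its IKK2-CA arrays started at 5.74, above the highest control at 5.03. It was the only one of the 11 to pass, against 0.69% of all features upward, and none passed against Pdx-1+/-.

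Other genes of peptide loading and trimming read lower more often than higher against control. Of 11 measured, 3 read higher in IKK2-CA than in control islets and none passed, with a median of −0.06 log2. Tapbpl, a tapasin relative that edits peptides, differed by 0.55 (adjusted p = 0.189) and Npepps, a cytosolic aminopeptidase, by −0.35 (adjusted p = 0.270). Erap1, which trims peptides in the endoplasmic reticulum, differed by 0.19 (adjusted p = 0.656). Against Pdx-1+/- 9 of the 11 were higher, none passed, and the median was 0.05.

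The constitutive core of the proteasome cuts most cellular proteins. Of its 14 subunits 12 read higher in IKK2-CA than in control islets, with a median of 0.10 log2, and none passed. The 3 of smallest p were Psma4 (0.28, adjusted p = 0.266), Psma6 (0.23, adjusted p = 0.289) and Psmb3 (0.21, adjusted p = 0.333). Of 26 activators, assembly factors and regulatory subunits 21 were higher, with a median of 0.09, and none passed. The first by p was Psme2, a subunit of the PA28 activator, which differed by 0.53 log2 (adjusted p = 0.151), and its partner Psme1 differed by 0.39 (adjusted p = 0.231).

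Of the regulators of class I transcription, 34 of 36 listed had a row, and 25 read higher in IKK2-CA than in control islets, with a median of 0.19 log2. The test was passed by 3 of them, against 0.69% of all features upward. Ifngr2, a chain of the interferon γ receptor, rose by 0.62 log2 (SE 0.126, adjusted p = 0.0225). Ciita, the class II counterpart of Nlrc5, rose by 0.98 (SE 0.201, adjusted p = 0.0226), and Irf8, an interferon regulatory factor of myeloid cells, by 1.09 (SE 0.255, adjusted p = 0.0417). Against Pdx-1+/- 29 of the 34 were higher, with a median of 0.23, and none passed.

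Class II genes present peptides on antigen-presenting cells. In IKK2-CA against control 7 of 11 measured passed, with a median of 1.02 log2. Of all features 0.69% passed upward in that comparison, and their median was −0.011. Ciita is on the class II list as well as on that of the regulators, and is among the 7. H2-DMa, a peptide editor, rose by 1.37 (adjusted p = 0.0145) and the invariant chain Cd74 by 1.02 (adjusted p = 0.0167). Of 35 interferon-stimulated genes measured 33 were higher, with a median of 0.62, and 1 passed, Rtp4, a receptor-transporting protein, at 1.17 (adjusted p = 0.0494). Against Pdx-1+/- all 11 and all 35 read higher, with medians of 1.01 and 0.69, and none passed. In Pdx-1+/- against control no gene of the 7 lists above passed. Whether these lists differ from the members was not tested.

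Markers of immune cells read higher in the same islets. In IKK2-CA against control 46.6% of all features read higher and 0.69% passed upward, with a median of −0.011 log2. Of 8 general leukocyte markers all read higher in IKK2-CA than in control islets, with a median of 0.87 log2, and Cd52 (1.72, adjusted p = 0.00941) and Lcp1 (0.95, adjusted p = 0.0255) passed. Of 10 markers of conventional dendritic cells all were higher and 8 passed, with a median of 1.50, led by Itgae, Itgax, Ccr7 and Fscn1. Zbtb46, a transcription factor of that lineage, differed by 0.02 (adjusted p = 0.959) and Batf3 by 0.13 (adjusted p = 0.538). Of 12 macrophage markers 11 were higher, with a median of 0.20, and 1 passed, Ccr2. The 8 T-cell markers were all higher, with a median of 0.66. Of 8 natural killer markers 7 were higher (median 0.28), and of 6 B-cell markers 5 (median 0.31). None of the T-cell, natural killer and B-cell markers passed. Against Pdx-1+/- all 8 leukocyte markers and all 10 dendritic markers read higher, with medians of 0.69 and 1.55, and 1 and 5 of them passed. Of all features 45.1% read higher in that comparison and 0.0964% passed upward.

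Array by array, the centred mean of the 8 leukocyte markers was 1.55 on IKK2-CA array 5, 0.81 on array 3, 0.43 on array 2, 0.15 on array 1 and −0.06 on array 4. It ranged from −0.70 to −0.18 in control and from −0.49 to −0.06 in Pdx-1+/- islets. IKK2-CA array 4 is thus the lowest of its group both for these markers and for the members. The dendritic markers differ there: they averaged 0.55 on IKK2-CA array 4, inside their IKK2-CA range of 0.53 to 1.70 and above the ranges of −0.65 to −0.29 in control and −0.62 to −0.33 in Pdx-1+/- islets. The 8 T-cell markers averaged 1.14 on IKK2-CA array 5, 0.92 on array 3 and −0.28 on array 4, against −0.31 to −0.17 in control islets. The part of any of these cell types in the members' differences was not tested, and which cells made the class I transcripts was not measured. In whole islets, more cells of a type and more RNA per cell cannot be told apart.

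**Figure D5:**
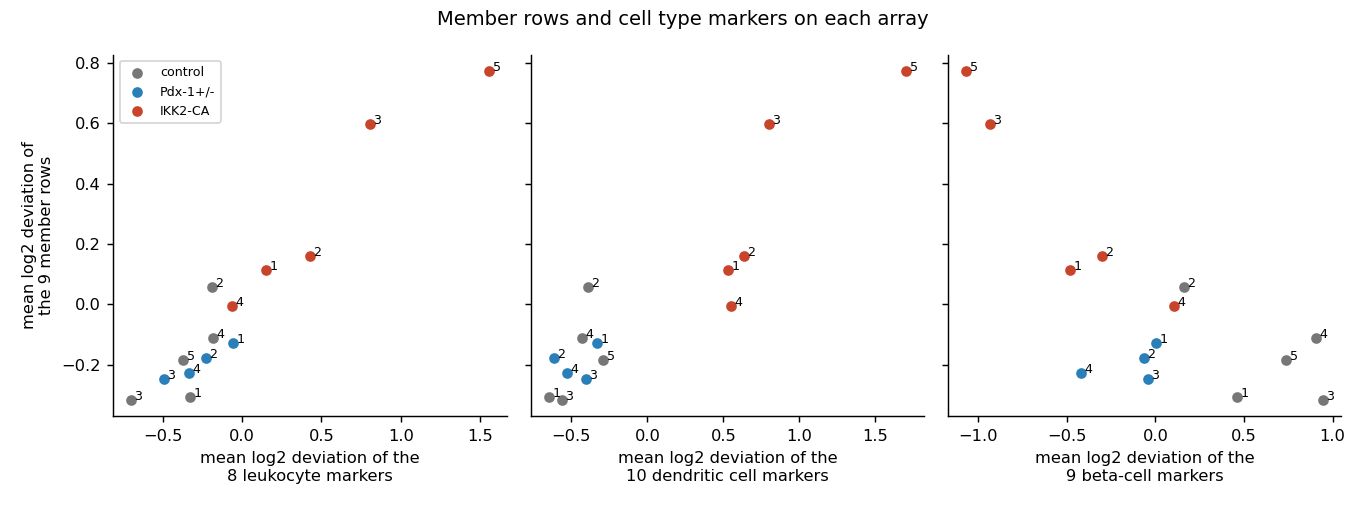
Mean log2 deviation of the 9 member rows on each array (vertical axes) against that of the leukocyte, dendritic cell and β-cell markers (horizontal axes), with 1 point per array. IKK2-CA arrays 3 and 5 lie highest on both axes for the leukocyte list, at 0.81 and 1.55.

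The arrays otherwise showed islet RNA with exocrine RNA. Ins2 read 12.52 to 12.64 as group means, and the acinar gene Cpa1 13.64 to 13.67. The highest signal on an array was 13.85 to 13.96, so Cpa1 lay near the top of the scale. Whether exocrine RNA was alike between the groups was not tested. Pdx1 ran from 7.67 to 8.62 in control, 6.85 to 7.32 in Pdx-1+/- and 5.97 to 7.44 in IKK2-CA islets, and Ikbkb, which encodes IKK2, differed by 0.24 log2 between IKK2-CA and control (adjusted p = 0.284). Of 9 β-cell markers all read lower in IKK2-CA than in control islets, with a median of −1.22. Among them 6 passed the threshold downward. Of all features 2.18% passed in either direction, which includes the 0.69% that passed upward. Against Pdx-1+/- all 9 also read lower, with a median of −0.37, and none passed. In Pdx-1+/- against control all 9 were lower, with a median of −0.79, and none passed. Their centred mean ran from −1.07 on IKK2-CA array 5 to 0.10 on IKK2-CA array 4, and from 0.16 to 0.95 in control islets. Intestinal markers averaged 3.05 above their mean on Pdx-1+/- array 4 and 1.24 on control array 3, and adipocyte markers 2.45 on IKK2-CA array 5. With 4 or 5 arrays a group, their number limits how precise each difference is.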

How the data were processed

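Total RNA was labelled and hybridised to Mouse Gene 1.0 ST arrays. Per the labels and the submitters' processing notes, the authors used Expression Console (Affymetrix; version not given in the sources used here) and RMA normalization. With no log base stated, the deposited values were read as log2 from their range. Of 35556 rows, 23410 were listed in the platform's gene annotation. The row of highest mean per symbol entry was kept, which left 20738 features, 800 of them with several symbols. They were tested without further normalization or filter in limma 3.58.1 (R 4.3.3, lmFit and eBayes, 11 residual and 3.404 prior degrees of freedom), with Benjamini-Hochberg adjustment and a threshold of 0.05. The script was tested on simulated data. The genes, lists and marker lists were chosen with earlier results of these data known. All genes of the group were named. From each list, genes past the threshold (at most 5 by adjusted p) or else the 3 of smallest p could be named, and Erap1, Zbtb46, Batf3 and Ikbkb were added after their values were seen. No array repeated another. Same-number arrays of different groups had residual correlations from −0.39 to 0.36, with 2 of 13 above 0.1, so they were not treated as pairs.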

Additional observations from a re-analysis of the deposited data

How the results depend on the processing

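Alternative runs used array median centring, quantile normalization, trended and robust eBayes, only the groups compared, or the lowest 30% of features left out. Others tested every row, the mean of an entry's rows, or rows of 1 symbol plus the member rows, so the joined member rows stayed in. The rest used array weights, the replicate block, the array sets below left out, or each array out in turn. In every run all 9 rows read higher in IKK2-CA in both comparisons. Their number past the threshold stayed at 0 against Pdx-1+/- and in Pdx-1+/- against control, and was 4 against control with array weights and 0 to 4 with 1 array out, the 4 being without IKK2-CA array 4. Against Pdx-1+/-, 20 features passed, which became 1 with only those groups, 60 with array weights, 9 with the replicate block, 59 with Pdx-1+/- array 4 and also IKK2-CA array 5 left out, and 50 without control array 3 as well. With 1 array out it was 2 to 71: 2 without any 1 of the Pdx-1+/- arrays, 11 without control array 1, and 5, 34 and 71 without IKK2-CA arrays 3, 4 and 5. Against control, 453 passed, which became 238, 1406 and 200 under the first 3 of these, 180 without the 3 arrays, and 120 (control array 3) to 990 (IKK2-CA array 4) with 1 array out. The count was also over 1.5 times lower without control arrays 1 (230), 4 (156) or 5 (189), Pdx-1+/- arrays 2 (294) or 3 (300), or IKK2-CA arrays 2 (292) or 3 (181). In Pdx-1+/- against control 18 passed, which became 71 with array weights, 9 with the block, 11 without the 3 arrays and 9 (Pdx-1+/- array 2) to 47 (control array 2) with 1 array out. The replicate block changed no member's call, and the arrays share only a number. Signs turned in 3 cases: Tapbp alone against control (−0.008 without the 3 arrays), and in Pdx-1+/- against control Nlrc5 (−0.0428 with the mean of its rows) and Tap1 (0.0198 with the block). The cause was not tested for any of these. Joined rows and 4 or 5 arrays a group limit what can be seen.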
